A study of Mus musculus with 6 samples.

Results

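The transcripts of 31 genes that make, sense and move cholesterol were followed in the whole epididymis of adult occludin knockout (Ocln-KO) mice and wild-type (WT) mice. The members were found by gene symbol among the 57127 genes listed for each library; all 31 were present, and all 31 were abundant enough to be tested. They comprise 18 enzymes of cholesterol synthesis, 4 genes of SREBP2 control, 3 genes of the LXR pathway and 6 genes of efflux, uptake, storage and carriage. Each genotype was represented by 3 libraries, WT of genotype wild type and Ocln-KO of genotype Ocln-/-, both of strain C57BL/6 by the labels and neither treated. The knockout males came from crosses between heterozygotes; no tissue-restricted deletion is described, and neither the deleted part of the gene nor whether the WT males were littermates is given in the sources used here. Separate RNA extraction from 3 pairs of mice and pooled RNA are both mentioned in the study's methods, so n counts libraries, and p-values measure the spread between these libraries, which may be partly technical.

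Cholesterol is built from acetyl-CoA through mevalonate, the isoprenoid farnesyl pyrophosphate, squalene and lanosterol. The transcription factor SREBP2 raises the synthesis genes together when membrane sterol is low, and INSIG proteins hold it and its escort SCAP in the endoplasmic reticulum when sterol is plentiful. The LXR receptors respond to oxysterols and raise the genes that export cholesterol to apolipoproteins. In the epididymis, the cholesterol content of the sperm membrane changes while sperm pass along the duct, and the epithelium takes up and releases sterol.

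The libraries held between 30646424 and 38870780 counts, and counts were expressed per 1000000 library counts (CPM) after scaling with edgeR's TMM factors, so that 1 count equalled between 0.0267 and 0.0314 CPM. Ocln itself, the deleted gene, lay at 85.9, 78.8 and 91.8 CPM in the WT libraries and at 15.1, 15.3 and 14.9 CPM in the Ocln-KO libraries. On the first principal component, which held 47.2% of the variance, Ocln-KO replicate 3 lay at -86.3, the other Ocln-KO libraries at -17.7 and -29.1, and the WT libraries between 37 and 52.8. The called members, and several members in which that library stood apart, are given with and without it. An extraction note in the sample records names prefrontal cortex, against the labelled tissue, but the epididymal transcript Crisp1 lay between 4439 and 16769 CPM in every library.

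The upstream sequence of 4 of the 15 members whose genotypes did not overlap is shown as a set of examples picked with their values known, with Ocln-KO below WT for Insig1 and Dhcr7 and above WT for Hmgcs1 and Apoe. Insig1, Dhcr7 and Hmgcs1 depend on SREBP2 in the textbook account of the pathway, and Apoe is an LXR target. Each stretch runs from position -200 to -51, counted from the transcription start in RefSeq on GRCm38.p6, 5′ to 3′ on the gene's strand. Capitals mark every match to the letters TCACNCCAC (a sterol regulatory element), its core CACNCCAC, CACGTG (an E-box), CCAAT or GGGCGG (a GC box), on either strand.
Insig1, chr5:28071212-28071361, plus strand: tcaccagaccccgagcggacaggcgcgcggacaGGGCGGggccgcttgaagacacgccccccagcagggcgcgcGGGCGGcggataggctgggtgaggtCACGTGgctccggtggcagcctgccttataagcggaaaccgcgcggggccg
Dhcr7, chr7:143822967-143823116, plus strand: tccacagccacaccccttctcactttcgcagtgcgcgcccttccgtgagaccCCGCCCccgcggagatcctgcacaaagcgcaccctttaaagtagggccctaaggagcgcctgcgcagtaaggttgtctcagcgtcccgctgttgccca
Hmgcs1, chr13:119690151-119690300, plus strand: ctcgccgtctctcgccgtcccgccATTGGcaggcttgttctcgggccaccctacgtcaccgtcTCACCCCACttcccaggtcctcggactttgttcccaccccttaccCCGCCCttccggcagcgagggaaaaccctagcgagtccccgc
Apoe, chr7:19699239-19699388, minus strand: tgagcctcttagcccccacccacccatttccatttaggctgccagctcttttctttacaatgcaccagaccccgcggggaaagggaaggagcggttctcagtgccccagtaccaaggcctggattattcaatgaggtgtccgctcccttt
None of these stretches overlaps an exon of GENCODE vM21. RefSeq gives 3 starts each for Dhcr7 and Apoe, of which the most upstream was used; the windows of the other Dhcr7 starts, not printed, held an E-box at -164 of their own start, and CCAAT and GC boxes.

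RefSeq windows of 300 bases, from 250 before to 50 after a start, were found for 25 of the 31 members. Fdps, Fdft1, Sqle, Abcg1, Scarb1 and Stard4 had no window in the set used and were not searched. Searched on both strands and over every start of a gene, the sterol regulatory element TCACNCCAC was present for 1 of these 25 genes, Hmgcs1, at position -137, and for 1.44% of the 27025 genes with a window. Its core CACNCCAC, which every full element contains, was present for 3 of 25 members (Hmgcs1, Insig1 and Acat2) and 7.12% of all genes. The E-box was found for 6 of 25 members and 8.09% of all genes. CCAAT was found for 19 of 25 members and 41.1% of all genes, and the GC box for 21 and 38.2%. A direct repeat of AGGTCA with 4 bases between, an LXR-type element, was found for 0 of 25 members and 0.0148% of all genes. These matches describe letters in short windows. The 27025 genes were not limited to the 19691 tested here, and a comparison with tested genes alone was not made. The 25 members had 34 windows, and the 27025 genes had 32851.

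Comparing Ocln-KO with WT, 4 of the 31 members changed, where 8.95% of all genes tested did: Insig1, Dhcr7 and Msmo1 fell and Apoe rose. The call is an adjusted p under 0.05 in the quasi-likelihood test of edgeR, with Benjamini-Hochberg adjustment over the 19691 genes tested. Over all genes 5.04% were lower and 3.91% higher by this rule, and over the members 9.68% were lower and 3.23% higher. Counting only whether the 3 libraries of each genotype overlapped, 13 of 31 members lay wholly lower in Ocln-KO (41.9%), against 19.4% of all genes, and 2 lay wholly higher (6.45%), against 16.9%. At an unadjusted p under 0.05, 13 members were lower and 2 higher, where 15.2% and 13.9% of all genes were. The median log2 fold change was -0.20 over the members and 0.01 over all genes tested. Because the whole duct was sequenced, fewer cells of a type and less RNA per cell cannot be told apart in any of these values.

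**Figure D1:**
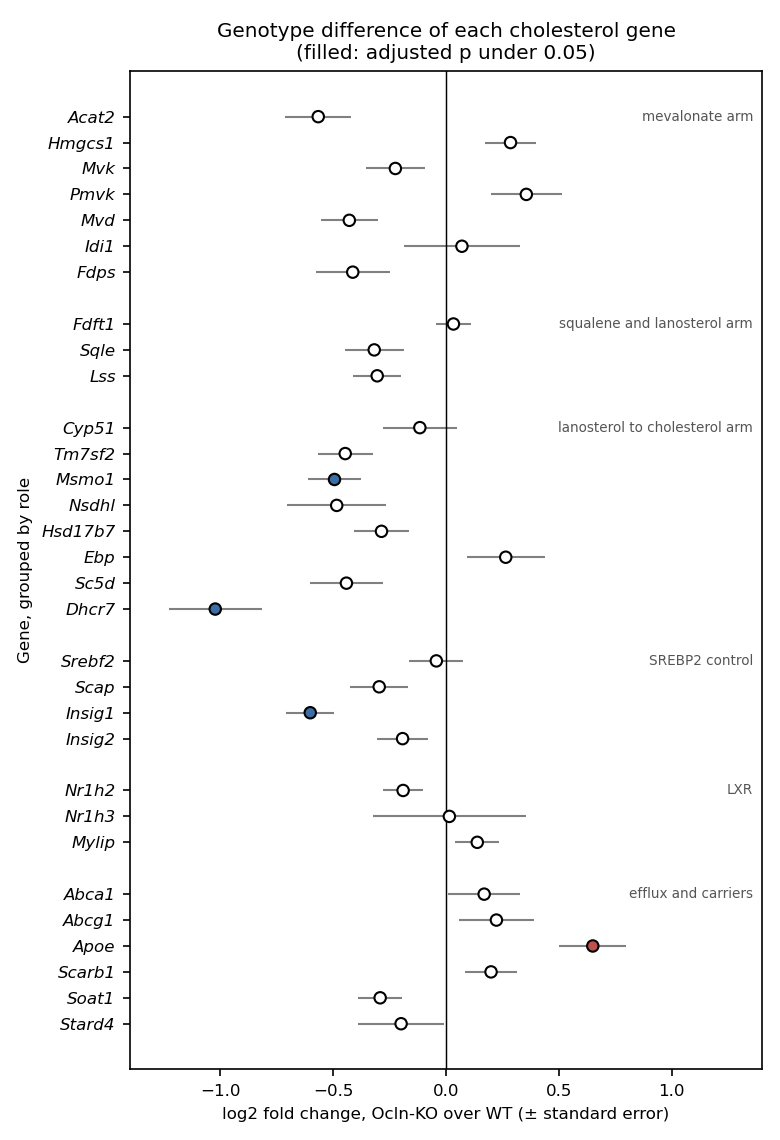
Log2 fold change of Ocln-KO over WT for each of the 31 genes, grouped by role; points are edgeR estimates, bars are standard errors, blue points fell and the red point rose at an adjusted p under 0.05, and open points did not pass. Most synthesis enzymes sit left of 0, with Dhcr7 farthest at -1.02, while Apoe lies farthest right at 0.65.

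The 18 synthesis enzymes were lower rather than higher on balance, with 13 log2 fold changes below 0 and 5 above, a median of -0.31 and a range from -1.02 to 0.36; 49.1% of all genes tested were below 0. Of the 18, 2 fell and 0 rose by edgeR, against 5.04% and 3.91% of all genes. Without overlap, 9 lay wholly lower and 1 wholly higher, against 19.4% and 16.9% of all genes. DESeq2 also called Acat2 and Tm7sf2 lower and 0 higher, in a fit that called 7.88% of all genes lower and 7.37% higher. At an unadjusted p under 0.05 in edgeR, 10 were lower and 1 was higher, against 15.2% and 13.9% of all genes. Their summed level was 1357, 1265 and 1276 CPM in the WT libraries and 1124, 1192 and 957 CPM in the Ocln-KO libraries. Every Ocln-KO library thus lay below every WT library in this sum, and Ocln-KO replicate 3 lay lowest. That library was the lowest of the Ocln-KO libraries for 11 of the 18 enzymes, and without it the median became -0.24, with 12 enzymes below 0 and 1, Dhcr7, lower by the test. The summed level of 10 epididymal principal cell markers, of which Crisp1, Adam7 and Lcn5 were the most abundant, also did not overlap. It lay between 28475 and 32979 CPM in WT and between 18050 and 26694 CPM in Ocln-KO. Crisp1 did not overlap between the genotypes (log2 fold change -0.92, edgeR adjusted p = 0.0855). Adam7 and Lcn5 overlapped (-0.11 and 0.037, adjusted p = 0.808 and 0.956). Of the 8 markers tested, 6 had a log2 fold change below 0 and 2 above. By edgeR and by limma-voom 1 fell, Aqp9, and by DESeq2 3 fell. Without Ocln-KO replicate 3, Aqp9, Crisp1 and Cd52 fell (edgeR adjusted p = 0.0364, 0.0431 and 0.0159). The part of these markers in the enzymes' levels was not tested.

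**Figure D2:**
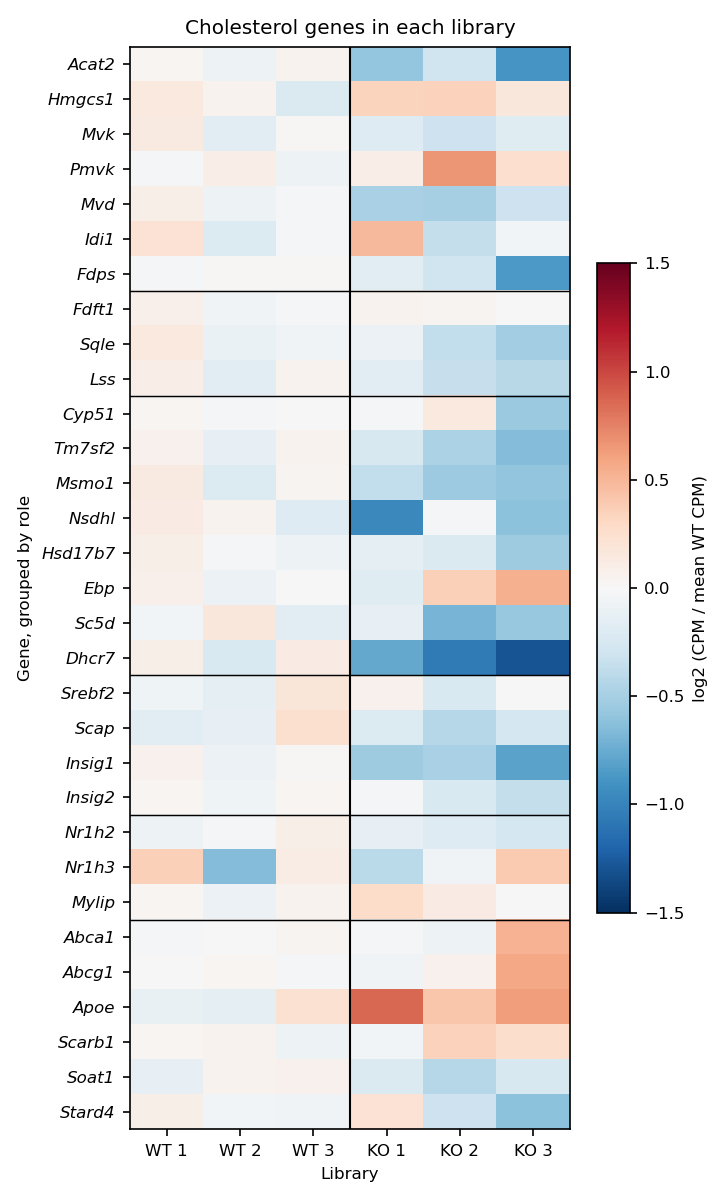
Level of each of the 31 genes in each of the 6 libraries as the log2 ratio of its CPM to the mean WT CPM (colour scale, blue lower and red higher), with genes grouped by role. The Ocln-KO columns are mainly blue in the synthesis rows, deepest in Ocln-KO replicate 3 for Acat2, Fdps and Dhcr7, and red for Apoe, Hmgcs1 and Pmvk.

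In the mevalonate arm, Acat2, which encodes the cytosolic acetoacetyl-CoA thiolase of the first step, lay at 285, 266 and 290 CPM in the WT libraries and at 188, 228 and 151 CPM in the Ocln-KO libraries. The genotypes did not overlap, but the log2 fold change of -0.57 (standard error 0.15, edgeR adjusted p = 0.0518) missed the threshold. Acat2 passed with DESeq2 (adjusted p = 0.00744), limma-voom (0.0442), no count filter (0.0247) and without Ocln-KO replicate 2 (0.0421). Without Ocln-KO replicate 3 its log2 fold change was -0.43 (edgeR adjusted p = 0.0577), and over the leave-one-out fits the adjusted p reached 0.164. Acat2 is a neighbour of its paralog Acat3 on chromosome 17, and 35.3% of the 100-base words of its longest transcript also occur in Acat3, so reads may have been split or dropped and the value is uncertain. Acat3 lay at 33.8, 35.1 and 35.4 CPM in the WT libraries and at 14.2, 33.4 and 32.3 CPM in the Ocln-KO libraries, and its low library, replicate 1, was not the lowest for Acat2.

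Hmgcs1, the HMG-CoA synthase gene, stood on the other side. Among the 25 members with a searched window, it alone held an exact match to the full sterol regulatory element. It lay at 117, 109 and 91.3 CPM in the WT libraries and at 134, 135 and 119 CPM in the Ocln-KO libraries. Each Ocln-KO library lay above each WT library, by a narrow margin between WT replicate 1 and Ocln-KO replicate 3. The log2 fold change of 0.29 (standard error 0.11) did not pass (edgeR adjusted p = 0.141), and over the leave-one-out fits the adjusted p ran from 0.104 to 0.321. An annotated opposite-strand gene, Gm48342, shares 12.1% of its exonic bases, and the strand setting of the counting is not given in the sources used here.

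The remaining mevalonate enzymes were not called. Mvd, the decarboxylase that forms isopentenyl pyrophosphate, lay at 16.6, 14.9 and 15.4 CPM in the WT libraries and at 11.2, 11.1 and 12.6 CPM in the Ocln-KO libraries, without overlap (log2 fold change -0.43, standard error 0.13, edgeR adjusted p = 0.0715). Mvk and Pmvk, the kinases that phosphorylate mevalonate in turn, differed by -0.22 and 0.36 on the log2 scale (adjusted p = 0.3 and 0.178). Pmvk was highest in Ocln-KO replicate 2, at 30.7 CPM, and its genotypes overlapped. Idi1, the isopentenyl pyrophosphate isomerase gene, lay between 4.27 and 7.7 CPM over all 6 libraries, with a log2 fold change of 0.070 (adjusted p = 0.887); stretches of its sequence also occur in the genes Gm13502 and Gm35570, which makes its low level uncertain.

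Fdps, which joins isoprenoid units into farnesyl pyrophosphate, was even in WT, at 123, 127 and 128 CPM. In Ocln-KO it had 112, 103 and 69.5 CPM, all below WT, with replicate 3 far lower than the others. The log2 fold change was -0.41 (edgeR adjusted p = 0.144) and -0.23 without that library. Gm43738, annotated on the same strand, shares 26.7% of the exonic bases of Fdps, so some of its reads may have been split or dropped.

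At the branch to sterols, Fdft1, the squalene synthase gene, differed little between the genotypes, with 148, 135 and 138 CPM in the WT libraries and 146, 145 and 140 CPM in the Ocln-KO libraries (log2 fold change 0.033, standard error 0.08, edgeR adjusted p = 0.824). Ctsb, annotated on the opposite strand, shares 18.3% of the exonic bases of Fdft1. The enzymes between squalene and lanosterol, Sqle and Lss, had estimates below 0 that did not pass. Sqle, the squalene epoxidase gene, lay at 83.5, 70.2 and 72.5 CPM in the WT libraries and at 70.8, 58.2 and 52.5 CPM in the Ocln-KO libraries (log2 fold change -0.32, adjusted p = 0.151), with Ocln-KO replicate 1 just above the lowest WT library. Lss, which closes the ring to lanosterol, had 55.9, 46.9 and 54.2 CPM against 46.6, 41.3 and 39.2 CPM, a narrow separation (log2 fold change -0.31, adjusted p = 0.111).

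The arm from lanosterol to cholesterol held both of the enzymes that fell, and 7 of its 8 members had a log2 fold change below 0, with a median of -0.44. Dhcr7, whose product reduces dehydrocholesterol to cholesterol in the last step of the Kandutsch-Russell route, lies on chromosome 7 from 143823145 to 143848410 (GENCODE vM21, GRCm38). It lay at 9.3, 7.5 and 9.53 CPM in the WT libraries and at 5.17, 4.21 and 3.58 CPM in the Ocln-KO libraries, that is 8.78 ± 1.11 against 4.32 ± 0.803 CPM (SD, n = 3 each). The lowest WT library was well above the highest Ocln-KO library. The log2 fold change was -1.02 (standard error 0.21, edgeR adjusted p = 0.0297), the largest on that scale of the 31 members in either direction. The level fell by 50.8%, and this was the only call past a 2-fold change. Over all genes, 3.19% had such a fold change with an adjusted p under 0.05. Leaving out any library kept the log2 fold change of Dhcr7 between -1.17 and -0.91. The adjusted p was 0.0346 without Ocln-KO replicate 3, and rose above 0.05 without WT replicates 1, 2 and 3 (0.121, 0.0648 and 0.109) and without Ocln-KO replicate 2 (0.0778).

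Msmo1 encodes the methylsterol monooxygenase that starts removal of the methyl groups left after the lanosterol demethylase step, on chromosome 8 from 64718139 to 64733792. It lay at 66.2, 52.2 and 61.9 CPM in the WT libraries and at 46.7, 41.3 and 40 CPM in the Ocln-KO libraries, that is 60.1 ± 7.17 against 42.7 ± 3.58 CPM (SD, n = 3 each). WT replicate 2 came nearest to Ocln-KO, still above it. The log2 fold change was -0.49 (standard error 0.12, edgeR adjusted p = 0.0412), and the level fell by 29%. This call was the least steady of the 4, passing in 7 of 14 refits. The adjusted p was 0.0673 after scaling by total counts alone and 0.065 without Ocln-KO replicate 3, 0.106 without Ocln-KO replicate 2, and 0.148, 0.0604 and 0.133 without WT replicates 1, 2 and 3.

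**Figure D3:**
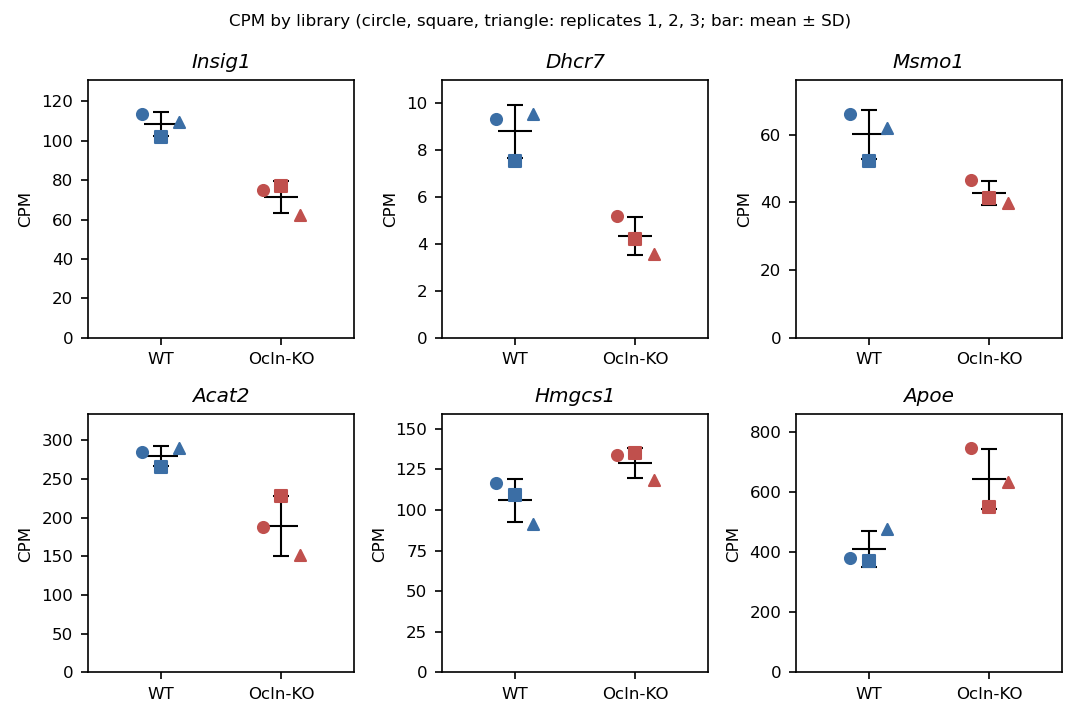
CPM of 6 members in each library (WT blue, Ocln-KO red; circle, square and triangle are replicates 1, 2 and 3), with black bars for the mean and SD of the 3 libraries. In all 6 panels the genotypes do not overlap, with Ocln-KO lower for Insig1, Dhcr7, Msmo1 and Acat2 and higher for Hmgcs1 and Apoe.

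Among the other enzymes of this arm, Tm7sf2, a sterol reductase gene, lay at 54.6, 48.1 and 54.2 CPM in the WT libraries and at 44.4, 37.5 and 33.2 CPM in the Ocln-KO libraries, without overlap (log2 fold change -0.45, standard error 0.12, edgeR adjusted p = 0.0608). It passed with DESeq2 (adjusted p = 0.0318), with no count filter (0.0489) and without Ocln-KO replicate 1 (0.0347). Without Ocln-KO replicate 3 its log2 fold change was -0.35 (edgeR adjusted p = 0.0968), and over the leave-one-out fits the adjusted p reached 0.182. Vps51, annotated on the same strand, shares 12.1% of the exonic bases of Tm7sf2. Nsdhl and Hsd17b7, which act with Msmo1 in the removal of methyl groups, differed by -0.48 and -0.29 on the log2 scale (adjusted p = 0.189 and 0.165). Nsdhl was uneven in Ocln-KO, at 52.5, 100 and 66.7 CPM, and overlapped the WT libraries at 111, 106 and 89.4 CPM, whereas Hsd17b7 did not overlap. Sc5d, the lathosterol oxidase gene, lay at 45, 52 and 41.5 CPM in the WT libraries and at 42.4, 28.6 and 31 CPM in the Ocln-KO libraries (log2 fold change -0.44, adjusted p = 0.121), and passed only when Ocln-KO replicate 1 was left out (0.0331).

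Cyp51, the lanosterol demethylase gene, was nearly constant in WT at 131, 126 and 127 CPM and had 125, 142 and 87.2 CPM in Ocln-KO. Cyp51 differed by -0.12 on the log2 scale (edgeR adjusted p = 0.682), and by 0.060 without replicate 3, the low library. Ebp, the sterol isomerase gene, was the enzyme of this arm with a positive estimate, 0.26 on the log2 scale (adjusted p = 0.355); Ocln-KO replicates 2 and 3 had 42.2 and 47.8 CPM, above the WT range of 31.2 to 34.9 CPM, and replicate 1 had 29 CPM, below it. Without replicate 1 Ebp passed, at 0.45 on the log2 scale (adjusted p = 0.0479).

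Of the SREBP2 control genes, Insig1 fell and the others did not pass. Insig1 lies on chromosome 5 from 28071363 to 28078662 and is itself raised by SREBP2, as well as holding SCAP in the endoplasmic reticulum. It lay at 114, 102 and 110 CPM in the WT libraries and at 74.8, 77.2 and 62.3 CPM in the Ocln-KO libraries, that is 108 ± 6.12 against 71.4 ± 8.01 CPM (SD, n = 3 each). The gap between the genotypes was wider than the spread within either. On the log2 scale the fold change was -0.60 (standard error 0.11, edgeR adjusted p = 0.0228), and the level fell by 34.1%. It was the steadiest call among the members, passing in 10 of 14 refits, including each refit without an Ocln-KO library (adjusted p = 0.0186 without replicate 3). Without WT replicates 1, 2 and 3 the adjusted p was 0.103, 0.0603 and 0.0932.

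Its paralog Insig2, which is not induced by SREBP2, lay at 29.9, 28.2 and 30.1 CPM in the WT libraries and at 29.1, 25 and 23 CPM in the Ocln-KO libraries (log2 fold change -0.19, standard error 0.11, edgeR adjusted p = 0.293), with overlap. Srebf2, the SREBP2 gene, overlapped fully, at 189, 180 and 224 CPM in the WT libraries and 208, 169 and 199 CPM in the Ocln-KO libraries (log2 fold change -0.043, standard error 0.12, adjusted p = 0.846). Scap had 173, 178 and 229 CPM against 168, 144 and 160 CPM, close but without overlap (log2 fold change -0.30, adjusted p = 0.17). WT replicate 3 was the highest WT library for both Srebf2 and Scap. An annotated opposite-strand gene shares 13.2% of the exonic bases of Scap.

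Among the carriers and efflux genes, Apoe rose. Apoe encodes apolipoprotein E, an acceptor of exported cholesterol made in quantity by macrophages and many other cells, and lies on chromosome 7 from 19696109 to 19699188. It lay at 379, 370 and 478 CPM in the WT libraries and at 745, 548 and 633 CPM in the Ocln-KO libraries, that is 409 ± 59.7 against 642 ± 98.8 CPM (SD, n = 3 each). Ocln-KO replicate 1 was the highest and WT replicate 3 the highest of its group, still below every Ocln-KO library. On the log2 scale the fold change was 0.65 (standard error 0.15, edgeR adjusted p = 0.0395), and the level rose by 56.9%. It was 0.66 without Ocln-KO replicate 3 (adjusted p = 0.0418), while the adjusted p was 0.061 when Ocln-KO replicate 1 was left out, 0.0526 for Ocln-KO replicate 2, and 0.148, 0.119 and 0.0827 for WT replicates 1, 2 and 3.

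Markers of macrophages were examined beside Apoe. Of 12 such markers, 11 had a log2 fold change above 0. By edgeR 1 rose, Trem2 (1.37, edgeR adjusted p = 0.0442), a lipid-sensing receptor of macrophages. By DESeq2 6 rose and by limma-voom 0. Over all genes, edgeR, DESeq2 and limma-voom called 3.91%, 7.37% and 3.70% higher. At an unadjusted p under 0.05 in edgeR, 9 markers were higher and 0 lower, against 13.9% and 15.2% of all genes. Without overlap, 4 lay wholly higher and 0 wholly lower, against 16.9% and 19.4%. Without Ocln-KO replicate 3, Trem2 did not pass (adjusted p = 0.0678) and Fcgr1 did (0.045). Their summed level was 375, 359 and 341 CPM in the WT libraries and 387, 455 and 649 CPM in the Ocln-KO libraries. The order of the Ocln-KO libraries differed between the measures, since Apoe was highest in replicate 1 and the markers in replicate 3. Their part in the rise of Apoe was not tested.

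Abca1 and Abcg1, the transporters that load cholesterol onto apolipoproteins and lipoprotein particles, did not pass. Abca1 lay at 319, 324 and 336 CPM in the WT libraries and at 320, 310 and 470 CPM in the Ocln-KO libraries (log2 fold change 0.17, standard error 0.16, edgeR adjusted p = 0.533). Abcg1 lay at 24.2, 24.9 and 24.1 CPM in the WT libraries and at 23.4, 25.6 and 36.4 CPM in the Ocln-KO libraries (log2 fold change 0.22, standard error 0.16, adjusted p = 0.412). For both genes, Ocln-KO replicate 3 alone stood high, and it was also the highest library for the macrophage markers. Without it the log2 fold changes were -0.052 and 0.0070; the part of the markers in these values was not tested.

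**Figure D4:**
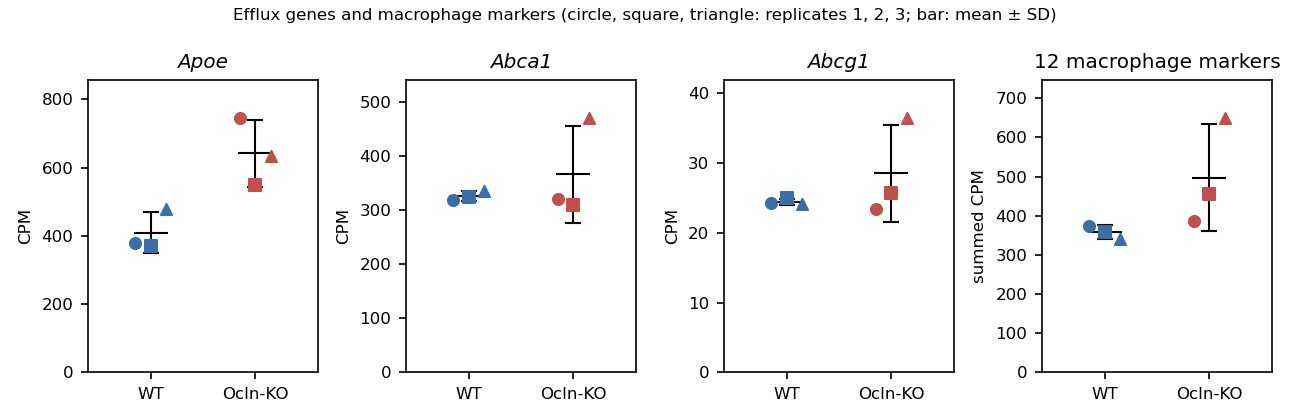
CPM of Apoe, Abca1 and Abcg1 and the summed CPM of 12 macrophage markers in each library (WT blue, Ocln-KO red; circle, square and triangle are replicates 1, 2 and 3; bars are the mean and SD). Apoe separates the genotypes in all libraries, whereas Abca1, Abcg1 and the markers stand highest in Ocln-KO replicate 3, at 470, 36.4 and 649 CPM.

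The receptors of the LXR pathway showed no call. Nr1h2, the widely expressed LXR beta gene, lay at 67.4, 69.8 and 75.7 CPM in the WT libraries and at 65.3, 62.2 and 59 CPM in the Ocln-KO libraries (log2 fold change -0.19, standard error 0.09, edgeR adjusted p = 0.194). Nr1h3, the LXR alpha gene of liver and macrophages, was scarce, between 2.05 and 4.23 CPM, and its estimate was near 0 (log2 fold change 0.015, standard error 0.34, edgeR adjusted p = 0.983). Mylip, an LXR target that marks lipoprotein receptors for degradation, differed by 0.14 on the log2 scale (adjusted p = 0.389). Scarb1, the receptor for high-density lipoprotein, lay at 32.8, 33.3 and 30.6 CPM in the WT libraries and at 31.4, 40.8 and 38.7 CPM in the Ocln-KO libraries (log2 fold change 0.20, adjusted p = 0.298).

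Soat1, which esterifies cholesterol for storage, lay at 161, 181 and 183 CPM in the WT libraries and at 151, 130 and 149 CPM in the Ocln-KO libraries, without overlap (log2 fold change -0.29, standard error 0.10, edgeR adjusted p = 0.097). Stard4, a soluble sterol carrier and SREBP2 target, had 72.2, 65.9 and 65.6 CPM in WT and spread from 44.2 to 78.6 CPM in Ocln-KO (log2 fold change -0.20, adjusted p = 0.538). Its Ocln-KO libraries lay on both sides of WT, replicate 1 above and the others below. Without Ocln-KO replicate 3 the log2 fold change of Stard4 was -0.030 (edgeR adjusted p = 0.922).

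Compared per length, as CPM per kilobase of the exons annotated in GENCODE vM21, Apoe was the highest member in WT at 191 ± 27.9 and Acat2 followed at 110 ± 5.01 (SD, n = 3 each). The next 11 members ran from Nsdhl at 35.9 to Mylip at 20.8, in the order Nsdhl, Insig1, Fdft1, Abca1, Fdps, Cyp51, Srebf2, Scap, Hmgcs1, Nr1h2 and Mylip, and neighbours in it did not differ beyond their SDs except Abca1 and Fdps. Within the paralog pairs, Insig1 was at 35.1 ± 1.98 against 8.45 ± 0.299 for Insig2, and Nr1h2 at 21.2 ± 1.26 against 1.28 ± 0.425 for Nr1h3. By this length, Idi1 at 1.57 ± 0.233 and Dhcr7 at 1.51 ± 0.191 were the lowest enzymes and did not differ beyond their spread. The length joins the exons of all annotated transcripts of a gene and can exceed the longest transcript. It was 5817 bases against 2815 for Dhcr7 and 3505 against 3027 for Idi1, so the order of the genes depends on the length used. The annotation that the authors counted with is not named, so these levels are approximate.

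Beyond the members, 79 other genes of the pathway were listed by role, of which 70 were abundant enough to be tested. Of these, 7 fell and 1 rose (10% and 1.43%, against 5.04% and 3.91% of all genes), and the median log2 fold change was -0.09. In uptake, Lrp2, the megalin receptor of apical membranes, fell from 800 ± 102 to 338 ± 133 CPM (SD, n = 3 each; log2 fold change -1.24, edgeR adjusted p = 0.0351). In lysosomal release of cholesterol, Npc2, a cholesterol-binding protein secreted in quantity by the epididymis, fell from 3372 ± 283 to 1920 ± 435 CPM (log2 fold change -0.81, adjusted p = 0.0351), and Lipa, the acid lipase that frees cholesterol from its esters, fell from 82.2 ± 8.83 to 37 ± 7.9 CPM (log2 fold change -1.15, adjusted p = 0.0137). Both of these genes were lower in each Ocln-KO library than in each WT library. Over the leave-one-out fits, the highest adjusted p of each of the 8 genes that passed lay between 0.0784 and 0.137.

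Of the SREBP processing list, 8 of 10 genes had a log2 fold change below 0, against 49.1% of all genes. By edgeR 1 fell: Erlin2, an endoplasmic reticulum protein of sterol control (-0.58, edgeR adjusted p = 0.0347). With DESeq2 3 were lower and with limma-voom 3. Over all genes, edgeR, DESeq2 and limma-voom called 5.04%, 7.88% and 5.33% lower. Of 11 other isoprenoid and sterol enzymes tested, 1 fell: Hsd3b7, which acts in bile acid synthesis (-0.88, adjusted p = 0.0396). Of 11 other LXR targets tested, 0 changed by edgeR. At an unadjusted p under 0.05 in edgeR, 1 was higher and 2 were lower, against 13.9% and 15.2% of all genes. DESeq2 and limma-voom likewise each called 1 higher and 2 lower. Srebf1 is listed both here and under SREBP processing, so it can count in both lists. Of 12 other efflux and acceptor genes tested, Abca2, a lipid transporter of endosomal membranes, and Prom1, a membrane glycoprotein that binds cholesterol rather than exporting it, fell (-0.62 and -0.71, adjusted p = 0.0412 and 0.0314), and Abca8a, a transporter of the ABCA family, rose (0.54, adjusted p = 0.026). DESeq2 called 2 uptake receptors higher and 2 lower, and 2 of the isoprenoid and sterol enzymes lower. It called 7.37% of all genes higher and 7.88% lower.

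**Figure D5:**
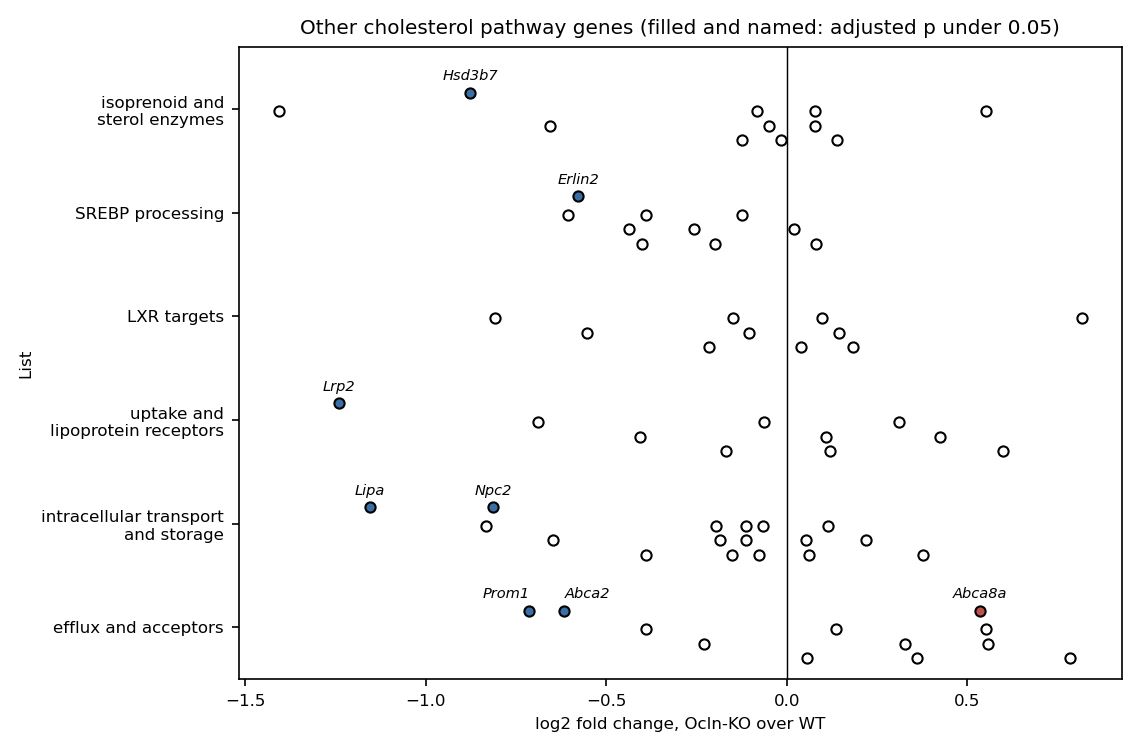
Log2 fold change of Ocln-KO over WT for the 70 tested pathway genes outside the 31, by list; blue and named genes fell, the red and named gene rose at an adjusted p under 0.05, and open points did not pass. Lrp2 at -1.24 and Lipa at -1.15 are the farthest left of those that passed, and Abca8a at 0.54 is the named gene right of 0.

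Markers of other cells also differed. Of 7 clear cell markers tested 5 fell by edgeR, 6 by DESeq2 and 4 by limma-voom. Among them 1, Rhcg, had a log2 fold change above 0 (0.37, edgeR adjusted p = 0.534). Of 6 smooth muscle markers 2 rose by edgeR, 4 by DESeq2 and 1 by limma-voom. All 6 were higher at an unadjusted p under 0.05 in edgeR, where 13.9% of all genes were. Of 6 basal cell markers 1 rose with each tool, and 1 of the 2 steroidogenic markers tested fell with each, Cyp17a1. Over all genes, edgeR called 5.04% lower and 3.91% higher, DESeq2 7.88% and 7.37%, and limma-voom 5.33% and 3.70%. Of 8 spermatid and sperm, 4 adipocyte and 2 lymphocyte markers tested, 0 were called by edgeR, DESeq2 or limma-voom, and 0, 2 and 1 had an unadjusted p under 0.05; without Ocln-KO replicate 3, 1 sperm marker, Tnp1, was higher. Sperm transcripts summed to between 311 and 396 CPM in WT and to 425, 440 and 101 CPM in Ocln-KO. The steroidogenic markers Cyp11a1, Insl3 and Lhcgr stayed under 0.3 CPM in every library.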

How the data were processed

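RNA of whole epididymis was depleted of rRNA, made into directional libraries and sequenced from both ends. Reads were cleaned by the authors, who aligned them with HISAT2 2.0.4 (submitters' processing notes) to GRCm38 and deposited the raw HTSeq count of each gene; annotation, counting mode and strand setting are not given in the sources used here. Columns were matched to samples by title.

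Fits used edgeR 4.0.16 in R 4.3.3: filterByExpr left 19691 of 32046 genes with a count, TMM factors, estimateDisp, glmQLFit and glmQLFTest, Benjamini-Hochberg adjustment over all genes tested. A standard error is the absolute log2 fold change over the root of F. The fits were also run on simulated counts, in which the changed genes differed by more than any called member. That run does not show how changes of the members' size are recovered. Alternatives were DESeq2 1.42.0, limma-voom 3.58.1, other scalings and filters, a replicate block, the 2-fold threshold of the study's methods, and each library left out.

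Members and lists were chosen with earlier results of these data known. All members are named; those with an adjusted p under 0.05, or without overlap and with an absolute log2 fold change of at least 0.5, have full statistics with every library, and called genes of the other pathway lists have their values. Same-numbered libraries did not deviate together (r = -0.053, -0.031 and -0.0026), so libraries were not paired by number. Differently numbered libraries had r from -0.083 to 0.127. The check bears on the numbering only, not on whether the mice were paired. With 3 against 3 libraries no two-sided exact permutation test can give a p under 0.1. Of the listed symbols, 27 read as dates and hold 0.145% of counts; none is a member.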

Additional observations from a re-analysis of the deposited data

How the results depend on the processing

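Of the members, 3 were lower and 1 higher. The number lower was 5 with DESeq2, which called 7.88% of all genes lower against 5.04% with edgeR, and 5 with no count filter (3.79% of all genes), 1 with a 2-fold change also required, and from 0 to 5 with a library left out; the number higher was 0 with a 2-fold change required and from 0 to 1 with a library left out. Without WT replicate 1, 2 or 3, edgeR called 0 of the 31, while 8, 9 and 7 were lower and 2, 1 and 1 higher at an unadjusted p under 0.05. Calls over all genes fell in the same fits from 992 lower and 770 higher to 19 and 4, 145 and 85, and 40 and 16. With the replicate number as a block, a pairing the data did not bear out, 0 members were lower and 0 higher by edgeR, against 13 and 3 at an unadjusted p under 0.05, and 31 of all genes were lower and 10 higher. Scaled by total counts, Insig1, Dhcr7 and Apoe passed and Msmo1 did not, and the median over all genes moved from 0.0081 to 0.094 on the log2 scale. The log2 fold change of 5 uncalled members changed sign. With total counts Srebf2 was at 0.043. With a library left out, Srebf2 ran from -0.11 to 0.058, Idi1 from -0.19 to 0.25, Cyp51 from -0.27 to 0.060, Nr1h3 from -0.23 to 0.24 and Abca1 from -0.052 to 0.28. The causes were not tested. Dhcr7, at 3.58 to 9.53 CPM, Idi1 and Nr1h3 rest on the fewest reads.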

Other observations

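Several pathway genes outside the members lay near the threshold or depended on Ocln-KO replicate 3, and the choice of those named here followed from their values. Ch25h, whose product makes an oxysterol, lay at 103, 82.2 and 82.6 CPM in the WT libraries and at 54.9, 37.5 and 8.52 CPM in the Ocln-KO libraries. Its genotypes did not overlap, yet the spread of the Ocln-KO libraries left its log2 fold change of -1.41 short of the threshold (standard error 0.53, edgeR adjusted p = 0.13). Without Ocln-KO replicate 3 it was -0.95 with an adjusted p of 0.0162, and over the leave-one-out fits the adjusted p reached 0.285. Leaving out that library moved the number of lower genes among the other pathway genes from 7 to 11, the additional ones being Ch25h, Paqr3, Lpl and Scd1.

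Srebf1, the SREBP1 gene and an LXR target, had a log2 fold change of -0.39 (edgeR adjusted p = 0.0506), and Scd1, a stearoyl-CoA desaturase gene, one of -0.81 (0.0512). Neither overlapped between the genotypes. Apoc1, the neighbour of Apoe on chromosome 7, went the way of Apoe, from 5.46 ± 1.2 to 9.63 ± 1.23 CPM (SD, n = 3 each; log2 fold change 0.82, edgeR adjusted p = 0.0512), without overlap between the genotypes.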
